A study of Rattus norvegicus and Bos taurus with 6 samples.

Results

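Venous endothelial nuclei of cow fat were taken here from the cow subcutaneous white adipose tissue library. They carried endothelial transcripts together with transcripts of 4 genes used here as venous markers. A nucleus was selected when it had at most 15000 transcripts (unique molecular identifiers, UMIs), at least 2 UMIs over ACKR1, SELP, TLL1 and SERTM1, and at least 3 UMIs over 7 endothelial genes (PTPRB, PECAM1, CYYR1, SHANK3, MECOM, EMCN and VWF). These endothelial UMIs also had to outnumber the UMIs of 8 genes of other cell types (PDGFRA, DCN and FBN1 of stromal cells, PTPRC, MRC1 and DOCK2 of leukocytes, NOTCH3 and MYH11 of mural cells). The nuclei were thus chosen by measured UMI counts of these genes. The rule found 155 of 2297 nuclei of the library (19424 nuclei in the series), or 6.75% (exact binomial 95% interval 5.76 to 7.85). They made up 22.6% (19.5 to 25.9) of the 685 nuclei that met the endothelial conditions of the rule. The values that chose these nuclei are given as a description and support nothing.

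The study isolated nuclei from frozen white fat of rats and cows, and deposited 6 single-nucleus RNA libraries, 5 of them from rat fat depots. The cow library came from snap-frozen flank subcutaneous fat of female, lactating Holstein dairy cattle kept in tie-stalls and labelled as normal, without treatment, and was prepared with the Parse Evercode WT v3 kit, which labels RNA inside fixed nuclei by rounds of barcoding. How many cows it holds is not given in the sources used here. The cow condition is 1 library with no replicate, so no test was made, and every interval covers counting error only.

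Blood leaves the capillaries through venules and veins, whose endothelium is the main place where leukocytes leave the blood. P-selectin (SELP) is stored in Weibel-Palade bodies with von Willebrand factor (VWF) and catches rolling leukocytes, and ACKR1 binds chemokines and presents them on the vessel wall. PLVAP builds the diaphragms of fenestrae and caveolae, and TLL1 is a metalloprotease of the tolloid family that cleaves procollagens and the BMP inhibitor chordin.

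The selected nuclei were deeper than the endothelial nuclei they were set against. They held 987126 UMIs in all, with a median of 5338 UMIs (4776 to 6657) and 2279 genes in a nucleus. The comparison group, called other blood endothelial nuclei, was the 504 nuclei that met the endothelial conditions with 0 or 1 venous UMI and fewer than 2 UMIs of lymphatic genes (PROX1, RELN, LYVE1 and CCL21). Its median was 3199.5 UMIs (2958 to 3686) and 1580.5 genes, and its sum was 2213060 UMIs. Levels below are UMIs summed over the nuclei of a group and scaled to counts per 1000000 UMIs (CPM), and a ratio has 1 UMI added to each sum. No cell barcode was shared between any of the 6 libraries.

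The rule rested mainly on TLL1. Of the 1213 venous UMIs in the selected nuclei, 987 (81.4%) were TLL1, and 149 of the 155 nuclei (96.1%) had at least 1 of them. SERTM1 gave 149 UMIs in 50 nuclei (32.3%), SELP gave 56 UMIs in 31 nuclei and ACKR1 gave 21 UMIs in 15 nuclei (9.68%). In 91 nuclei (58.7%) TLL1 was the sole venous gene with a UMI, and 139 nuclei would have met the rule on TLL1 alone. UMIs of at least 2 of the venous genes stood in 60 nuclei (38.7%). ACKR1 and SELP, the genes that define venules most directly, were thus at 0 in most of the selected nuclei.

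The venous UMIs were spread unevenly over the selected nuclei. The median nucleus had 4, and the highest had 60. A count of 2 or 3 was found in 68 nuclei (43.9%), a count of 4 to 9 in 61 nuclei (39.4%) and a count of 10 or more in 26 nuclei (16.8%; 11.3 to 23.6). Those 26 nuclei held 57.7% of all venous UMIs. Among them TLL1 had a UMI in all 26, SERTM1 in 24, SELP in 13 and ACKR1 in 10, and 24 of 26 had UMIs of at least 2 venous genes. The bins were chosen after this distribution was seen. The median depth was 4866.5 UMIs with 2 or 3 venous UMIs, 4924 with 4 to 9 and 7039.5 (5874 to 12269) with 10 or more.

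**Figure D1:**
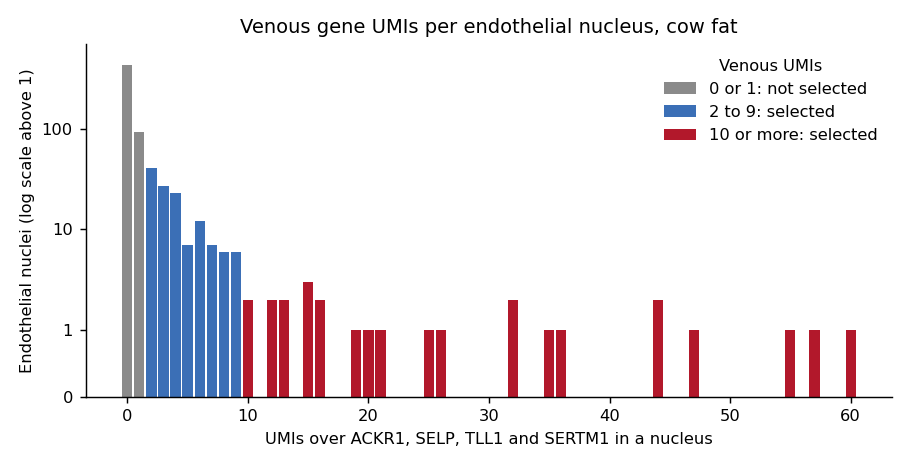
Number of endothelial nuclei (y axis, log scale above 1) by the UMIs of ACKR1, SELP, TLL1 and SERTM1 in the nucleus (x axis), for the 685 endothelial nuclei of the cow library. Grey bars are nuclei with 0 or 1 venous UMI, blue bars the selected nuclei with 2 to 9, and red bars the 26 selected nuclei with 10 or more, which reach 60 UMIs.

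At the limit of the rule, nuclei just inside and just outside were set side by side. The 41 nuclei with 2 venous UMIs had 268 CPM of TLL1. The 87 nuclei of the comparison group with 1 had 164 CPM. Those 87, of 93 endothelial nuclei with 1 venous UMI, had fewer than 2 lymphatic UMIs, a limit not set for the nuclei inside. PLVAP, which the rule did not use, was at 24.8 CPM just inside and 51.6 CPM just outside. BTNL9, a gene of capillary endothelium, was at 1193 CPM inside and 832 CPM outside. At this edge PLVAP was thus lower and BTNL9 higher inside than outside, the opposite of their order between the nuclei richest in venous UMIs and the rest. The PLVAP value inside rested on few UMIs, since all 68 nuclei with 2 or 3 venous UMIs held 16. Their interval, 23.0 to 65.3 CPM, overlapped that outside, 32.3 to 78.1 CPM, so the PLVAP order at the edge is uncertain.

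Each venous gene was also measured in the endothelial nuclei that the other 3 venous genes chose, so that its own UMIs played no part. ACKR1 was at 20.4 CPM (12.4 to 31.4) in the 154 nuclei chosen without it and at 1.67 CPM (0.456 to 4.28) in the remaining endothelial nuclei. SELP was at 50.5 CPM (37.2 to 66.9) against 5.78 CPM (3.16 to 9.70), and SERTM1 at 144 CPM (121 to 170) against 9.42 CPM (5.97 to 14.1). Without TLL1 only 36 nuclei were left, with 1743 CPM of TLL1 (1590 to 1908) against 190 CPM (175 to 206). Each of the 4 genes was thus higher where the other 3 were found. They are the rule's own genes, chosen with earlier results of these data known, so these values are a description and support nothing.

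When endothelial nuclei were grouped by TLL1 UMIs alone, the other venous genes took no part in the grouping. SERTM1 was at 8.87 CPM in the 460 nuclei with 0 TLL1 UMIs, 11.2 with 1, 41.4 with 2 or 3, 85.3 with 4 to 9 and 490 in the 22 nuclei with 10 or more. SELP was at 3.94, 13.4, 24.8, 37.0 and 143 CPM, and ACKR1 at 2.46, 0, 2.76, 14.2 and 71.6 CPM. PLVAP was at 34.5, 49.1, 33.1, 128 and 204 CPM in the same order. All 4 genes were highest where TLL1 had 10 or more UMIs, and ACKR1 and PLVAP with 2 or 3 were close to their values with 0. SERTM1, SELP and ACKR1 belong to the rule, so their values here are a description too.

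Several genes outside the rule were highest in the nuclei with 10 or more venous UMIs. PLVAP was at 34.7 CPM in endothelial nuclei with 0 venous UMIs, 51.6 with 1, 40.2 with 2 or 3, 114 with 4 to 9 and 190 (137 to 257) with 10 or more. The bins with 0 and 1, here and below, are the 417 and 87 nuclei of the comparison group, with fewer than 2 lymphatic UMIs. The selected bins had no such limit. IL1R1, the signalling receptor of interleukin-1, was at 19.6, 46.9, 42.7, 70.6 and 159 CPM in the same order. VEGFC, a growth factor of lymphatic vessels, was at 66.1, 25.8, 88.0, 231 and 553 CPM. With 2 or 3 venous UMIs, PLVAP and IL1R1 were thus no higher than with 1, and IL1R1 with 1 was already above its value with 0. VEGFC was lowest with 1. MCTP1, a membrane protein with calcium-binding domains, was at 273, 328, 339, 630 and 1278 CPM. The venous regulator NR2F2, at 36.4, 51.6, 37.7, 67.8 and 54.4 CPM, and the junction gene CDH5, at 237, 171, 249, 225 and 222 CPM, had no such order.

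BTNL9, RGCC, CXCL12 and NOTCH4, from the capillary, chemokine and arterial lists, went the other way. BTNL9 was at 1397, 832, 1239, 868 and 240 CPM over the 5 bins, and RGCC, a cell cycle regulator found in capillaries, at 175, 91.4, 103, 78.7 and 18.1 CPM. The chemokine CXCL12 was at 485, 234, 274, 157 and 99.7 CPM. NOTCH4, an endothelial Notch receptor, was at 297, 183, 221, 185 and 40.8 CPM. The decrease was not even, since nuclei with 1 venous UMI were lower than those with 2 or 3 in all 4 of these genes.

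**Figure D2:**
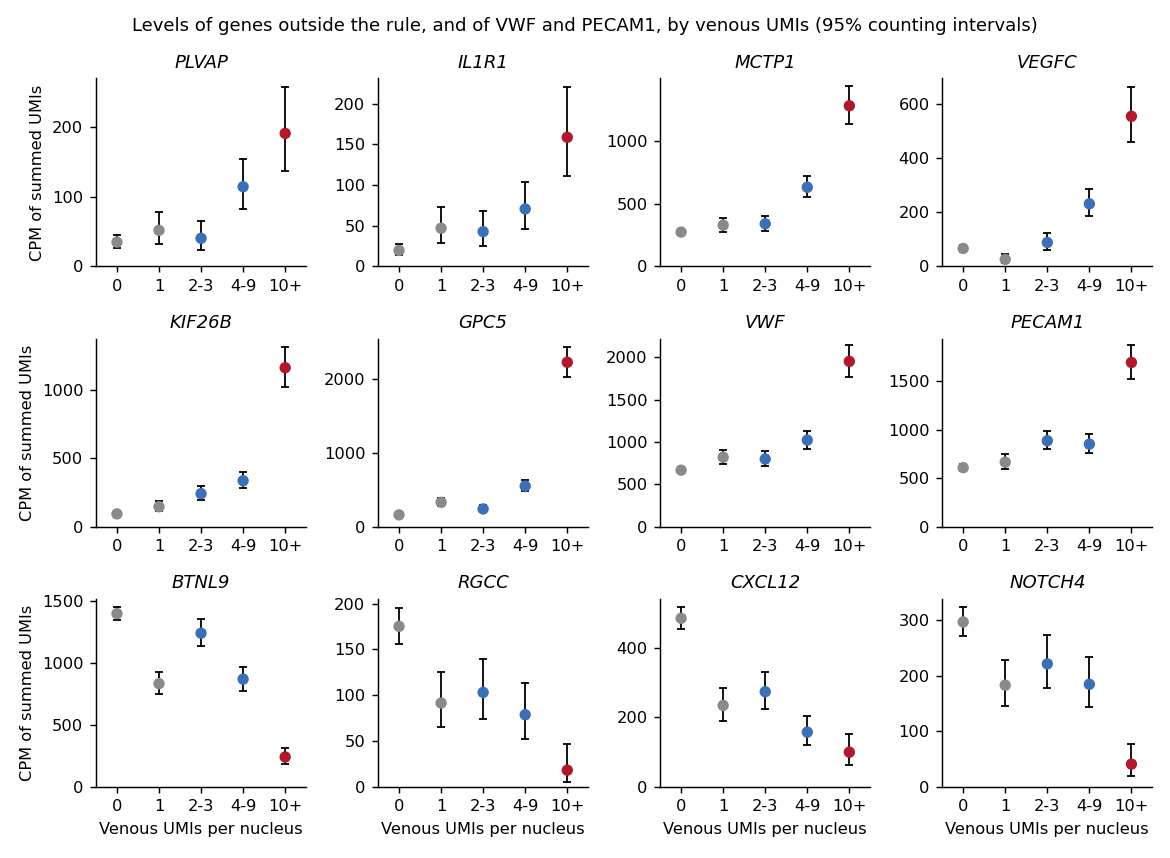
CPM of UMIs summed over nuclei (y axis of each panel, from 0) against the venous UMIs of the nucleus (x axis), with exact Poisson 95% intervals as bars. Grey points are the other blood endothelial nuclei with 0 (417 nuclei) and 1 (87 nuclei), which had fewer than 2 lymphatic UMIs. Blue points are the selected nuclei with 2 to 3 and 4 to 9, and the red point those with 10 or more, without that limit. At the red point PLVAP is at 190 CPM and BTNL9 at 240 CPM. VWF and PECAM1 were part of the rule.

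The nuclei with 10 or more venous UMIs had mostly selected nuclei as neighbours when other variable genes were used. Each endothelial nucleus was given its 15 nearest neighbours over 30 principal components of 2000 variable genes, leaving out the genes of the rule. Of the neighbours of the 26 nuclei with 10 or more venous UMIs, 80.8% on average were selected nuclei, where selected nuclei made up 22.6% of all endothelial nuclei. The average was 42.5% for nuclei with 4 to 9 venous UMIs, 31.1% with 2 or 3, 27.2% with 1 and 18.2% with 0. Of the neighbours of the 26 nuclei, 41.5% on average were themselves among the 26, which were 26 of the 685 endothelial nuclei. The 26 were also deeper, with a median of 7039.5 UMIs against 3199.5 in the other blood endothelial nuclei. The part of depth in these neighbour shares was not tested. In PLVAP, the marker the rule did not use, and in their neighbours, the 68 nuclei with 2 or 3 venous UMIs stood nearer to the unselected nuclei than the 26 did.

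Against the other blood endothelial nuclei, 10284 genes had at least 30 UMIs in both groups together. In the 155 nuclei 289 of them were at least 2-fold higher, which is 2.81%, and 158 were at least 2-fold lower, which is 1.54%. For the 26 nuclei, 8984 genes were measured, of which 1002 (11.2%) were at least 2-fold higher and 621 (6.91%) at least 2-fold lower. Scaling without the most abundant transcript, which took 9.92% of the UMIs of the 155 nuclei and 13.6% of those of the others, moved the split in the 155 nuclei to 232 higher and 199 lower. The median log2 ratio of all genes measured was 0.10 in the 155 nuclei and 0.20 in the 26. The counts and ratios of lists below are to be read against these shares and medians. Of the 621 lower genes, some were at 0 UMIs in the 26 nuclei, and with such genes set at a floor of 3 UMIs over the group, 500 were at least 2-fold lower.

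PLVAP, IL1R1 and MCTP1 led the venous identity genes outside the rule. Of 13 measured in the 155 nuclei, 3 were at least 2-fold higher (PLVAP, IL1R1 and MCTP1) and none was 2-fold lower, with a median log2 ratio of 0.50. PLVAP had a log2 ratio of 1.41 (0.98 to 1.85), IL1R1 of 1.66 (1.15 to 2.19) and MCTP1 of 1.21 (1.05 to 1.37). Among the 26 nuclei 6 of 12 were at least 2-fold higher, POSTN was at 0 UMIs, and the median was 1.02. The 3 added there were VCAM1, the ligand of leukocyte integrins, at 1.18 (0.11 to 1.98), the chemokine CCL14 at 1.67 (0.76 to 2.40) and LIFR, the receptor of leukaemia inhibitory factor, at 1.76 (1.54 to 1.96). Classical venous regulators did not reach 2-fold. NR2F2, the nuclear receptor that specifies vein, was at 52.7 CPM in the 155 nuclei against 39.3 CPM in the others, a log2 ratio of 0.43 (-0.10 to 0.93). EPHB4, the venous receptor of ephrin-B2, was at 79.0 against 59.7 CPM, 0.41 (-0.02 to 0.82), and reached 0.86 (0.10 to 1.45) in the 26 nuclei.

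Among the genes of leukocyte adhesion and passage, 2 of 17 were at least 2-fold higher in the 155 nuclei and 0 were lower, with a median log2 ratio of 0.23. SELP, part of the rule, was one. ICAM1, which holds leukocytes before they cross, was the other, at 28.4 CPM against 12.2 CPM, from 28 and 27 UMIs. ICAM1 was at 38.3 CPM in nuclei with leukocyte genes, and PTPRC and DOCK2 together were at 229 CPM in the 155 nuclei against 118 CPM, whose part in the ICAM1 ratio was not tested. With 10 or more venous UMIs, 5 of 17 were at least 2-fold higher, adding VCAM1, ALCAM and PECAM1, the last part of the rule like SELP, and 3 were lower. ALCAM was at 199 against 62.8 CPM. The 3 lower genes were ESAM at 36.3 against 118 CPM, PODXL, which codes for podocalyxin, at 27.2 against 122 CPM, and MCAM at 13.6 against 75.01 CPM, the last from 3 UMIs. CDH5, the cadherin of endothelial junctions, had the same level in both, 222 against 224 CPM.

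Chemokine and cytokine genes past 2-fold included receptors of interleukin-1, interleukin-3 and histamine. In the 155 nuclei 3 of 21 were at least 2-fold higher (IL1R1, IL3RA and the histamine receptor HRH1), 1 was lower (CXCL12), and the median log2 ratio was 0.48. For the 26 nuclei 12 of 20 were at least 2-fold higher and the median was 1.18. The leukocyte genes PTPRC and DOCK2 moved with them, together at 344 CPM in the 26 nuclei against 118 CPM, and their part in this list was not tested. In nuclei with leukocyte genes HRH1 was at 170 CPM, IL3RA at 18.2 CPM and CSF2RB at 69.9 CPM. IL1R1 was at 40.3 CPM in nuclei with leukocyte genes, 40.3 CPM with stromal genes and 52.3 CPM with mural genes. HRH1, through which histamine opens venules, was at 517 CPM in the 26 nuclei against 149 CPM in the other endothelial nuclei, a log2 ratio of 1.81 (1.48 to 2.11). IL3RA, the alpha chain of the interleukin-3 receptor, was at 72.5 against 9.94 CPM, and its signalling partner CSF2RB was at 49.9 against 9.04 CPM. TNFRSF1A, a receptor of tumour necrosis factor, was at 122 against 39.3 CPM, and IL1RAP, the partner of IL1R1, at 90.6 against 32.1 CPM. IL33, a cytokine kept in the nucleus of endothelial cells, was at 440 against 143 CPM. The receptor TNFRSF1B did not follow, at 109 against 134 CPM.

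Genes of Weibel-Palade bodies and haemostasis gave 2 of 15 at least 2-fold higher in the 155 nuclei. They were SELP, part of the rule, and thrombomodulin (THBD), the latter from 18 UMIs against 12. None of the 15 was 2-fold lower and the median log2 ratio was 0.34. Of 14 measured in the 26 nuclei, 5 were at least 2-fold higher, SELP again among them, and 2 were lower. VWF, part of the rule, was at 1953 against 697 CPM, and ENTPD1, which breaks down extracellular ATP and ADP, at 177 against 38.9 CPM. RAB27A, which controls the release of Weibel-Palade bodies, was at 81.6 against 32.1 CPM, and ANGPT2, a ligand of the TEK receptor stored in them, at 72.5 against 30.7 CPM. F8, coagulation factor VIII, was lower at 104 against 254 CPM. PLAT, the tissue plasminogen activator, was lower as well, with 3 UMIs (13.6 CPM) against 48.8 CPM.

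Most arterial genes were lower by less than 2-fold in the 155 nuclei and by more in the 26, while VEGFC, which stood on that list, was higher. In the 155 nuclei 1 of 17 was at least 2-fold higher (VEGFC) and 3 were lower, with a median log2 ratio of -0.60. The lower ones were DLL4, the Notch ligand of arteries and sprouting tips, at 15.2 against 36.6 CPM, SEMA3G at 8.10 against 21.7 CPM and HEY1, a Notch target, at 2.03 against 14.01 CPM, from 2 UMIs. Of 16 measured in the 26 nuclei, 13 were at least 2-fold lower and the median was -1.59. With the 5 measured genes at 0 UMIs set at the floor, 10 were at least 2-fold lower and the median was -1.24. DLL4 and GJA5, which codes for a connexin of arteries, were at 0 UMIs, which against the floor of 3 UMIs over the group (13.6 CPM) makes them at least 2.69-fold and at least 3.56-fold lower. UNC5B, a netrin receptor, had 2 UMIs (9.06 CPM) against 217 CPM, a log2 ratio of -4.00 (-7.63 to -2.72). EFNB2, which codes for ephrin-B2 of arteries, was at 68.0 against 226 CPM, though 30.8% of the 26 nuclei and 31.9% of the others had a UMI of it. JAG1, a Notch ligand, did not follow, at 168 against 142 CPM.

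RGCC and GPIHBP1 were the capillary genes past 2-fold in the 155 nuclei. In the 155 nuclei 2 of 16 were at least 2-fold lower (RGCC and GPIHBP1) and none was 2-fold higher, with a median log2 ratio of -0.33. GPIHBP1, which holds lipoprotein lipase on the capillary wall, had 10 UMIs (10.1 CPM) against 26.2 CPM. Of the same 16 in the 26 nuclei, 8 were at least 2-fold lower, 2 were higher (CYYR1, part of the rule, and AQP1) and the median was -1.03. BTNL9 had a log2 ratio of -2.40 (-2.84 to -2.03), and ADGRF5, an adhesion G protein-coupled receptor, of -2.36 (-2.91 to -1.93). The fatty acid transporter CD36 was at 680 against 1633 CPM, and KDR, the main VEGF receptor, at 186 against 503 CPM. AQP1, a water channel, had 9 UMIs, and its log2 ratio of 1.06 had an interval of -0.27 to 1.99.

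**Figure D3:**
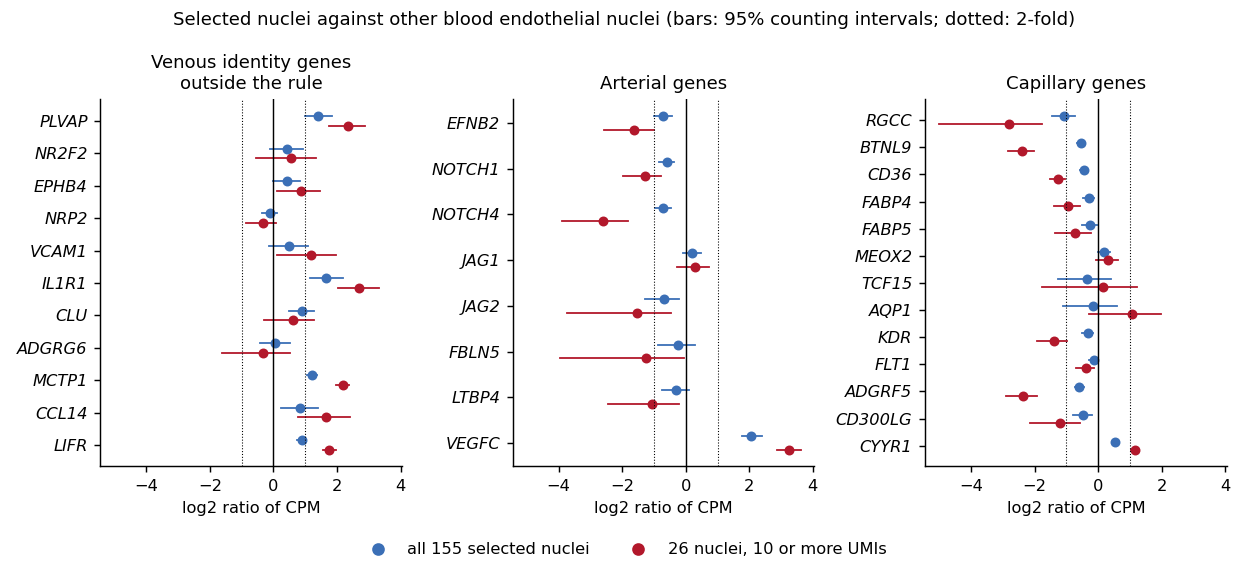
Log2 ratio of CPM (x axis) over other blood endothelial nuclei for genes of 3 lists with at least 3 UMIs in the 26 nuclei, for all 155 selected nuclei (blue) and for the 26 nuclei with 10 or more venous UMIs (red). Bars are 95% counting intervals and dotted lines mark 2-fold. PLVAP, IL1R1, MCTP1 and VEGFC lie beyond the right dotted line in both, and BTNL9 and NOTCH4 beyond the left line in red only.

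Among genes found in at least 10% of the selected nuclei, the largest ratios belonged to the rule's own SERTM1, TLL1 and SELP. Then came SLC4A11, a membrane transporter, at 51.7 against 5.87 CPM with a log2 ratio of 3.06 (2.24 to 4.14), and ACER2, a ceramidase of the Golgi, at 62.8 against 7.68 CPM, 2.97 (2.24 to 3.90). SLC4A11 came from 19 of the 155 nuclei, with up to 13 UMIs in 1 nucleus. ACER2 came from 32 nuclei. TSPAN7, a tetraspanin, was at 157 against 22.6 CPM in 50 nuclei, and RBFOX3, a splicing factor best known as the neuronal marker NeuN, at 159 against 27.1 CPM in 51 nuclei. Further genes of adhesion and the cell surface were CADM3 at 60.8 against 10.4 CPM, PLEKHA7 of adherens junctions at 237 against 47.9 CPM, and CTNNAL1, related to alpha-catenin, at 98.3 against 22.6 CPM. GPC5, a glypican that carries heparan sulphate, was at 797 against 191 CPM, and MMP16, a membrane-bound matrix metalloproteinase, at 306 against 82.7 CPM. KIF26B, an atypical kinesin, was at 483 against 103 CPM, and the transcription factor MEOX1 at 46.6 against 8.13 CPM. The remaining genes among the 20 highest were SPTBN5, PKHD1L1, VEGFC, CRISPLD1, NPRL3 and DCTD, with log2 ratios between 1.86 and 2.25.

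In the 26 nuclei the same rule for naming genes added IDO1, EDN1, PGR, SCARA3 and GNA14. IDO1, the enzyme that turns tryptophan into kynurenine, had 18 UMIs in 8 of the 26 nuclei (81.6 CPM) and 15 UMIs in 5 of the 504 others (6.78 CPM). EDN1, the precursor of the vasoconstrictor endothelin-1, had 15 UMIs in 7 nuclei (68.0 CPM) against 15 UMIs in 12 nuclei (6.78 CPM). PGR, the progesterone receptor, had 26 UMIs in 12 nuclei (118 CPM) against 28 UMIs in 22 nuclei (12.7 CPM). PGR was at 16.1 CPM in nuclei with leukocyte genes and 12.1 CPM in nuclei with stromal genes. IDO1, EDN1 and PGR thus rested on few UMIs but were spread over several nuclei. SCARA3 had 54 UMIs in 16 of the 26 nuclei and GNA14 had 67 UMIs in 17.

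The 12 lowest genes of the 155 nuclei had smaller ratios than the highest. The gene of carboxypeptidase M, whose symbol CPM is not the unit used here, had 44 UMIs against 306 in the larger group, a log2 ratio of -1.61 (-2.12 to -1.17). SMAD7, an inhibitor of TGF-beta signalling, was at 17.2 against 42.0 CPM. SCD, which desaturates fatty acids, was at 99.3 against 239 CPM, and DGAT2, an enzyme of triglyceride synthesis, at 53.7 against 122 CPM. The list of adipocyte markers moved with them, at 973 against 1548 CPM, and its part in these ratios was not tested. The others of the 12 were the glycolytic enzyme gene ENO1, RILPL2, ARHGEF37, SEMA7A, DLL4, ACYP2, CXCL12 and CYBB, with log2 ratios between -1.47 and -1.18. The lowest genes of the 26 nuclei included UNC5B and TNFSF18, a ligand of the TNF family. TNFSF18, KLHL13, P2RY2, a receptor of extracellular nucleotides, and TMEM204 were at 0 UMIs and so, against the same floor, at least 4.92-fold, 3.16-fold, 2.96-fold and 2.89-fold lower. SHISA6 was at 31.7 against 339 CPM, NEBL at 18.1 against 193 CPM and WIPF3 at 63.4 against 548 CPM.

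Most endothelial transcription factors stayed within 2-fold, as did most genes measured (2.81% higher and 1.54% lower in the 155 nuclei). The list includes MECOM, part of the rule. In the 155 nuclei 2 of 29 were at least 2-fold higher, MEOX1 and BNC2, and the median log2 ratio was 0.21. ERG, which keeps endothelial identity, was at 493 against 422 CPM. Of 27 measured in the 26 nuclei, 6 were at least 2-fold higher and 1 lower, where the shares over all genes were 11.2% and 6.91%. FOXP1 was at 965 against 351 CPM, and KLF2, which responds to blood flow, at 77.0 against 26.2 CPM from 17 UMIs. TSHZ2 was the lower one, at 1020 against 2741 CPM.

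In the BMP and TGF-beta list 3 of 29 genes were at least 2-fold higher in the 155 nuclei and 1 lower, with a median log2 ratio of 0.05. The higher ones were TLL1, part of the rule, the transcription regulator ID2 from 24 UMIs, and LTBP1. LTBP1, which anchors latent TGF-beta in the matrix, was at 351 against 133 CPM. It was at 247 CPM in nuclei with stromal genes, 255 CPM with mural genes and 102 CPM with leukocyte genes. The part of other cells' RNA in the LTBP1 ratio was not tested. SMAD7, given above, was the lower one, and SMAD6, a related inhibitor, was at 88.1 against 152 CPM, within 2-fold. BMP6, a ligand, was at 142 against 213 CPM. In the 26 nuclei 4 of 28 genes of the BMP and TGF-beta list were at least 2-fold higher, TLL1 among them. Another 7 were lower, and the median was -0.12. In the basement membrane list 1 of 26 genes was at least 2-fold higher and 0 lower in the 155 nuclei, with a median of -0.06. In the 26 nuclei 3 of its genes were higher and 4 lower. In the 26 nuclei the basement membrane collagens COL4A1 and COL4A2 were at 1124 against 2154 CPM and 1029 against 1844 CPM, and NID2, a linker of laminin and collagen, at 45.3 against 154 CPM, while the laminin chain LAMA3 was higher at 340 against 137 CPM.

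The other lists had few members past 2-fold in the 155 nuclei, where 2.81% of all genes measured were higher and 1.54% lower. Of the genes of lipid handling 0 of 17 were at least 2-fold higher and 1 was lower, of ion channels 0 of 19 in either direction, of antigen presentation 0 of 6 and of immediate early genes 0 of 14. Vasoactive signalling gave 1 of 20 higher (EDN1), Notch and Eph signalling 3 of 18 lower (DLL4, HES1 and HEY1) with a median log2 ratio of -0.22, junctions and caveolae 1 of 18 higher (PLVAP), VEGF and angiopoietin signalling 1 of 15 higher (VEGFC), and lymphatic genes 1 of 4 higher (RELN), with a median log2 ratio of 0.65 that is partly built in, since the comparison nuclei were held to fewer than 2 UMIs of RELN, PROX1, LYVE1 and CCL21. Genes of inflammatory activation gave 2 of 15 higher, ICAM1 and BIRC3. Of 4 proliferation genes measured, MKI67 was lower, with 7 UMIs against 65. In the 26 nuclei, Notch and Eph signalling gave 1 of 17 higher and 7 lower (6 with the floor). Lipid handling gave 1 of 17 higher and 4 lower, and ion channels 0 of 19 and 3. Vasoactive signalling gave 4 of 19 higher and 2 lower, and inflammatory activation 4 of 14 and 0. The shares over all genes there were 11.2% higher and 6.91% lower. CALCRL, the receptor of adrenomedullin, was at 816 against 299 CPM in the 26 nuclei.

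Since deep nuclei meet the rule more easily, nuclei were compared after each was thinned to 1000 UMIs. PLVAP then had a UMI in 10.3% (6.02 to 16.2) of the 155 nuclei, 23.1% (8.97 to 43.6) of the 26 nuclei and 3.37% (1.98 to 5.35) of the other blood endothelial nuclei. The share was 0.290% in the 1379 nuclei that were not endothelial. Before thinning these shares were 29.7%, 65.4%, 8.93% and 1.09%. MCTP1 had a UMI in 40.6% (32.8 to 48.8), 65.4% (44.3 to 82.8) and 17.9% (14.6 to 21.5) of the same endothelial groups, and VEGFC in 12.9% (8.06 to 19.2), 23.1% (8.97 to 43.6) and 3.77% (2.28 to 5.82). IL1R1 had a UMI in 8.39% (4.54 to 13.9) of the 155 nuclei and 2.18% (1.09 to 3.87) of the others, beside 3.05% of the nuclei that were not endothelial. TLL1 stood in 51.6% of the 155 nuclei, but in 4.56% of the other blood endothelial nuclei and 4.06% of the nuclei that were not endothelial, where the rule itself held the other blood endothelial nuclei to at most 1 venous UMI. BTNL9 had a UMI in 43.2% (35.3 to 51.4) of the 155 nuclei and 51.8% (47.3 to 56.2) of the others, intervals that overlap, but in 11.5% (2.45 to 30.2) of the 26 nuclei. RGCC was at 5.16% (2.25 to 9.92) against 13.1% (10.3 to 16.4).

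**Figure D4:**
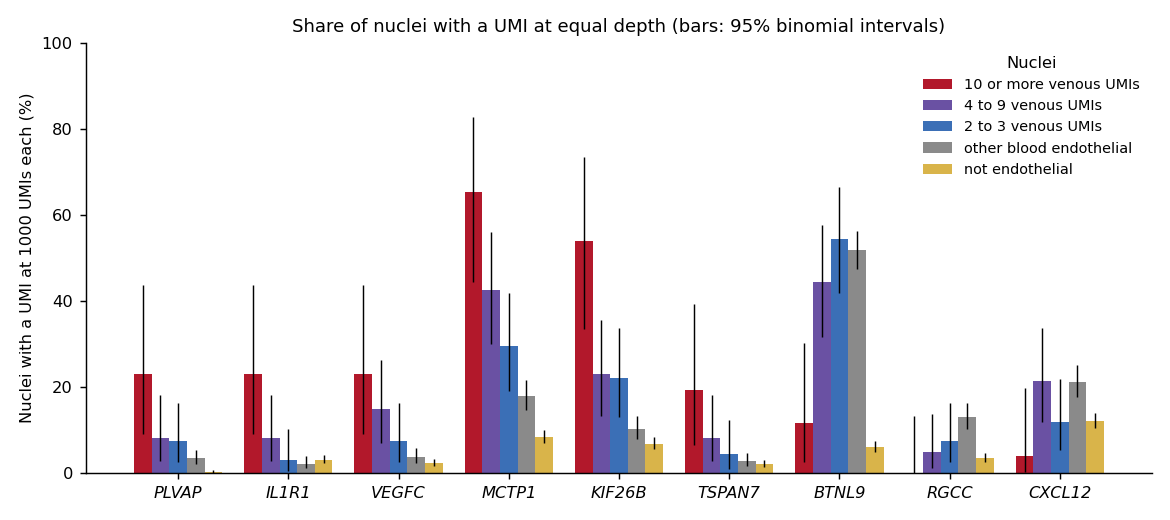
Percent of nuclei with a UMI of each gene after every nucleus was thinned to 1000 UMIs (y axis), in selected nuclei with 10 or more, 4 to 9 and 2 to 3 venous UMIs, in the 504 other blood endothelial nuclei and in the 1379 nuclei that were not endothelial. Bars show exact binomial 95% intervals, and BTNL9 at 11.5% in the nuclei with 10 or more venous UMIs stands far below the 51.8% of the other blood endothelial nuclei.

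The selected nuclei were also split by ACKR1 and SELP, and the genes given here are those that differed most between the groups, so they describe the split and support nothing. At least 2 UMIs over these 2 genes were found in 17 nuclei, 12 of which had 10 or more venous UMIs, and neither gene had a UMI in 117 nuclei, 10 of which had 10 or more. After thinning, BTNL9 had a UMI in 0 of the 17 nuclei, which with a floor of 3 nuclei allows a share of up to 17.6%, and in 61 of the 117 (52.1%). GPC5 had one in 12 of 17 against 30 of 117, the zinc finger gene BNC2 in 11 against 25, MCTP1 in 13 against 40, and KIF26B in 11 against 26. MYOF, a ferlin that repairs membranes, was found in 10 of 17 against 19 of 117 and RAI14 in 9 against 14, whereas its relative DYSF (dysferlin) was found in 3 of 17 against 69 of 117. SERTM1 had a UMI in 9 of 17 against 7 of 117. The median depth was 7906 UMIs in the 17 and 5209 in the 117.

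Endothelial genes outside the rule were present in the selection. Of 15 further endothelial genes, 0 were 2-fold different in either direction in the 155 nuclei, and their summed level was 7054 CPM against 5840 CPM. In the 26 nuclei 3 of the 15 were at least 2-fold higher and 3 lower, with a summed level of 8370 CPM. Marker genes of other cells were present too. Of the leukocyte genes PTPRC and DOCK2, DOCK2 was at least 2-fold higher in the 155 nuclei, and together they were at 229 CPM in the 155 nuclei, 344 CPM in the 26 nuclei and 118 CPM in the other blood endothelial nuclei. In the 26 nuclei, 23 of the 45 DOCK2 UMIs and 12 of the 31 PTPRC UMIs each came from 1 nucleus. The macrophage list (1 of 6 measured genes at least 2-fold higher, F13A1) summed to 363 CPM against 290 CPM, with CD163 the most abundant and OLR1 at 0. The lymphocyte list (0 of 3) summed to 193 against 118 CPM, mostly SKAP1, with CD3G at 0 and, in the 26 nuclei, CD3E and CD247 at 0 as well. In the 26 nuclei the macrophage list was at 471 CPM, with F13A1 at 150 against 35.7 CPM. The lymphocyte list was there at 240 CPM, with SKAP1 at 199 against 70.9 CPM, and the stromal list at 1890 CPM, with PDGFRA at 77.0 against 32.1 CPM. Adipocyte genes were lower, 973 against 1548 CPM over 11 genes, 4 of them at least 2-fold lower, with ACACA the most abundant. They were at 508 CPM in the 26 nuclei, where CIDEC and CIDEA were at 0. The stromal list (0 of 7 past 2-fold) summed to 1566 against 1366 CPM, mostly FBN1, and the mural list (0 of 9) to 535 against 615 CPM. The erythroid list was at 3.04 against 4.97 CPM, mostly HBB, the mesothelial list at 9.12 against 4.97 CPM, mostly WT1 and with KRT19 at 0, and the skeletal muscle list at 5.07 against 8.59 CPM, mostly MYH2. The part of other cells' RNA in these ratios was not tested.

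At least 1 UMI of the 8 genes of other cell types was found in 142 of the 155 nuclei and in 409 of the 504 others, and in 114 of the 155 when FBN1 was left aside. Lymphatic endothelial genes were at 108 CPM in the 155 nuclei and 47.9 CPM in the others, which had been required to hold fewer than 2 such UMIs, while CCL21 was at 0. RELN, a secreted glycoprotein of lymphatic endothelium, was at 93.0 CPM with 2 or 3 venous UMIs, 48.8 CPM with 4 to 9 and 36.3 CPM with 10 or more. At least 2 UMIs of lymphatic genes stood in 16 of the 155 nuclei (10.3%) and in 2 of the 26. Of the 1379 nuclei under the depth limit that were not endothelial, 35 (2.54%; 1.77 to 3.51) had 2 or more venous UMIs.

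The library was read in 2 sublibraries, and its nuclei had entered through 2 wells of the first barcoding round, which gives 4 technical portions of the same nuclei suspension and no replicates. They held 30, 40, 45 and 40 of the selected nuclei. VEGFC was at 208, 325, 254 and 185 CPM in the selected nuclei against 60.3, 66.5, 53.8 and 52.0 CPM in the other blood endothelial nuclei. MCTP1 had log2 ratios between 0.95 and 1.41, KIF26B between 1.78 and 2.97 and GPC5 between 1.67 and 2.53. PLVAP was more variable, with 33.8, 99.3, 152 and 106 CPM in the selected nuclei and log2 ratios between 0.31 and 2.34, and so was IL1R1, between 0.38 and 2.76. BTNL9, CD36, RGCC and CXCL12 were below 0 in all 4 portions, RGCC between -1.42 and -0.40. EFNB2 and HRH1 each crossed 0 in 1 portion, at 0.02 and -0.02.

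**Figure D5:**
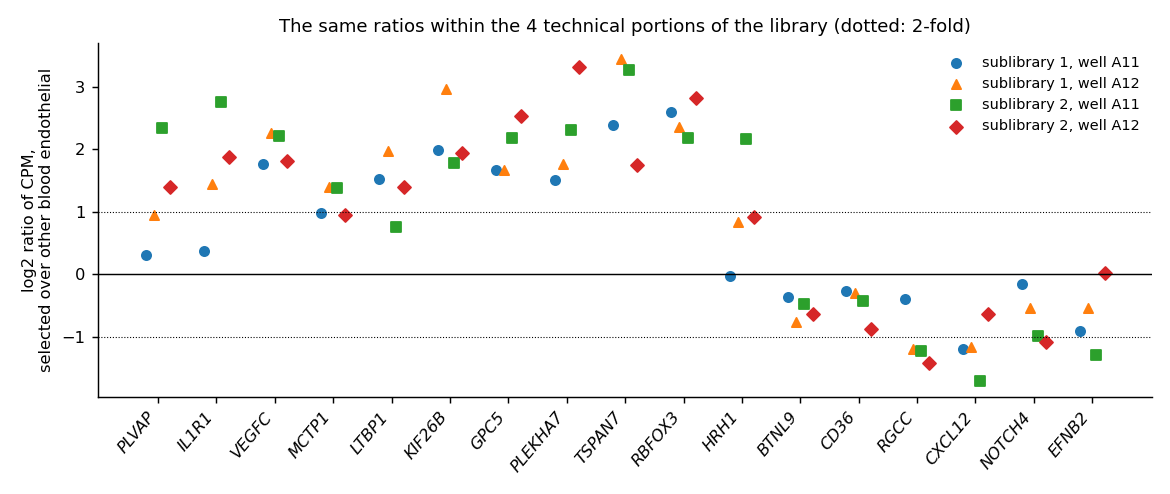
Log2 ratio of CPM (y axis) of the selected nuclei over other blood endothelial nuclei for 17 genes (x axis), computed within each of the 4 technical portions of the library (symbols). Dotted lines mark 2-fold. VEGFC, KIF26B, GPC5, PLEKHA7, TSPAN7 and RBFOX3 lie above the upper dotted line in all 4, while PLVAP and IL1R1 spread from 0.31 and 0.38 to 2.34 and 2.76.

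The same rule by gene symbol was applied to the 5 rat libraries, of Dahl SS rats, as a set of values and not a comparison, since species, depots and depth all differ. It found 12 of 77 endothelial nuclei of mesenteric perivascular fat on the 10x platform, 6 of 279 on the Parse platform, 3 of 59 of retroperitoneal fat, 31 of 695 of thoracic aortic perivascular fat and 25 of 833 of brown fat. The median endothelial nucleus of these libraries had 366, 719, 735, 1564 and 1642 UMIs, against 3799 in the cow. In the rat 10x library the selected nuclei held 76 UMIs of Tll1, and Ackr1, Selp and Sertm1 were at 0 in all 77 endothelial nuclei, which with a floor of 3 nuclei allows up to 3.90% of nuclei with a UMI of each at that depth. In thoracic aortic fat they held 103 UMIs of Tll1, 13 of Selp, 5 of Ackr1 and none of Sertm1, and in brown fat 65, 8, 7 and 1. Sertm1 had at most 1 UMI in the selected nuclei of any rat library, which were fewer and shallower than those of the cow. Over all endothelial nuclei it had 5 UMIs in mesenteric fat on the Parse platform (17.5 CPM, 5.69 to 40.9). It had 3 in thoracic aortic fat, 3 in brown fat and 0 in the 10x and retroperitoneal libraries. The level in cow endothelial nuclei was 46.5 CPM (39.5 to 54.4).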

How the data were processed

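The authors processed reads with FastQC, the Parse split-pipe pipeline and Scanpy, with the bovine genome ARS-UCD1.3, and deposited UMI counts of each gene in each called nucleus, without normalization. The library held 16827260 UMIs. Gene counts were read by symbol from 36075 genes, and ADIPOQ, CAV1, PPARG, CD63 and other symbols with no match were not analysed here. Sequences and promoters were not analysed here.

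UMIs were summed over nuclei, scaled to CPM and given with exact Poisson 95% intervals, with exact binomial ones for shares. Thinning was without replacement (seed 20). Python 3.11.15, numpy 2.4.6, scipy 1.17.1, pandas 2.3.3, scikit-learn 1.9.0 and matplotlib 3.10.9 were used, and the steps were tested on simulated data. The study used scDblFinder to identify doublets. No doublet caller was run here, and doublets were not removed. Named genes were those of the rule, of 20 gene lists and of lists of cell type markers, the 20 highest and 12 lowest by ratio with a symbol, at least 30 UMIs over both groups together and a UMI in at least 10% of the higher group, and the 10 genes that differed most after thinning between nuclei with and without ACKR1 or SELP. The nuclei with 10 or more venous UMIs were treated by the same rule. The selected nuclei and all lists were chosen with earlier results of these data known, and the bins of venous UMIs after the counts were seen. The result of 1 list of cell type markers is not reported here.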

Additional observations from a re-analysis of the deposited data

Results flagged for a closer look

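Nuclei above the limit of 15000 UMIs were left out of every comparison, and venous transcripts were also found there. Of 233 such nuclei, 88 had 2 or more venous UMIs, and 48 met the rule in all but the limit, with 508 venous UMIs and a median of 27292.5 UMIs in a nucleus. Whether these are single nuclei was not tested.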

How the results depend on the processing

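The number of selected nuclei depended on the venous minimum and on TLL1. It was 248 with a minimum of 1 venous UMI, 114 with 3, 36 without TLL1, 13 with no UMI of the 8 genes of other cell types, 203 with no upper limit and 49 when nuclei were thinned to 1000 UMIs first, of which 46 were among the 155. With the study's filters on depth, genes and mitochondrial share it was 144, and 21 of the 26 nuclei with 10 or more venous UMIs passed them. The doublet step of the study was left out of this setting. Ratios of the 26 nuclei were not recomputed with these filters. Against the 289 higher and 158 lower genes, thinned nuclei gave 158 and 79 of 3978 genes measured, a minimum of 100 UMIs gave 77 and 28, and no minimum gave 4954 and 1097. The mean of CPM per nucleus gave 262 lower genes, and the nuclei with 2 or 3 venous UMIs alone gave 247. Leaving lymphatic nuclei out of the selection gave 248 and 231. For the nuclei with 10 or more venous UMIs, 1002 higher genes became 587 when at least 1 venous UMI per 1000 UMIs was asked instead (70 nuclei, median 3583 UMIs), the other added settings giving 683 to 1119. The alternatives for these nuclei, those that leave out lymphatic UMIs and the nuclei with 2 or 3 venous UMIs alone were added after seeing the data. With a minimum of 1 venous UMI, the rat nuclei numbered 39 in mesPVAT on the Parse platform, 11 in RP fat, 91 in taPVAT and 72 in BAT. A set of 20 genes was followed through the settings, among them PLVAP, VEGFC, CD36 and UNC5B. It was picked from genes named above, many with large ratios, and is not the list of the 20 highest. No gene of the rule is in it. All 20 kept the sign of their log2 ratio in each setting in which they had 30 UMIs. There were 222 such values for the 155 nuclei and 120 for the 26, of which 166 and 101 stayed within the counting interval. The genes were picked with results of these data known, so the kept signs are a description. No paired analysis was possible because there was 1 cow library. ACKR1 had 21 UMIs in the selected nuclei, and the part of depth in this low count was not tested. The floor of 3 UMIs in the 26 nuclei is 13.6 CPM.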
